A study of Homo sapiens with 8 samples.

Results

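Nickel-washed-out cells (Ni-W) were compared with untreated cells (UT) across all genes, using 4 of the 8 RNA-Seq libraries of the series, 2 for each group. The libraries were chosen by their labels alone and no expression value was used. Of the 25411 genes listed in each library, 15826 had enough reads to be tested. All libraries came from BEAS-2B, an immortalised human bronchial epithelial line, grown in DMEM with fetal bovine serum. UT cells received no nickel. Ni-W cells had been kept in 100 µM NiCl2 for 6 weeks and then seeded as single cells without the metal, and a randomly picked population was expanded in nickel-free medium for more than 6 months. The Ni-W group is thus a population grown from a single cell, and no cloning step is described for UT, so a difference that followed nickel exposure and a difference carried by the founding cell cannot be told apart. The study called the 2 libraries of a group biological replicates, and the P values measure the spread between them, not between separate washed-out populations. The question was which genes and functions differed long after the metal had been removed.

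Soluble nickel is a lung carcinogen that causes few mutations. It competes with iron at dioxygenases, among them the prolyl hydroxylases that mark hypoxia-inducible factor (HIF) for destruction and the demethylases of histones and DNA, and nickel-exposed cells are known for switching on HIF targets. Epithelial cells are held together by desmosomes and cadherins and rest on a laminin-rich basement membrane through integrins. They can shift towards a matrix-producing, motile state that is marked by fibronectin and driven by factors such as SNAI2 and ZEB1.

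The libraries held 37469371 and 26383920 reads in UT and 45692298 and 31141364 in Ni-W. Across genes the replicates correlated at r = 0.991 in UT and 0.993 in Ni-W, against 0.941 to 0.943 between the groups. The epithelial label was checked against 8 defining markers, of which 3 (KRT7, KRT8 and KRT18) reached 1 RPKM (reads scaled to transcript length and library size) in both UT libraries. CDH1, which encodes E-cadherin, was at 0.05 and 0.01 RPKM in UT and 0.07 and 0.11 in Ni-W, and ESRP1 had no reads in UT. The summed RPKM of the 8 markers was 602 to 636 in UT and 947 to 972 in Ni-W. Of 8 fibroblast and mesenchymal markers 3 reached 1 RPKM in both UT libraries, with a sum of 514 to 580 in UT and 398 to 413 in Ni-W, and DCN had no reads. COL1A1 was the only one of these 8 that was called, and its mean RPKM differed by -132 in Ni-W. No marker of airway secretory or ciliated cells or of endothelium reached 1 RPKM in either group, though VWF, one of 6 endothelial markers, was called higher at up to 0.1 RPKM. Of 6 alveolar markers 1 reached 1 RPKM in both Ni-W libraries and none in UT, and NKX2-1 was called higher at under 1 RPKM. The alveolar sum was 0.8 to 0.87 RPKM in UT and 1.35 to 1.89 in Ni-W. Of 6 airway basal markers NGFR and ITGA6 were called higher, with a sum of 6.05 to 6.84 RPKM in UT and 10.1 to 12 in Ni-W, and TP63, the defining factor, had no reads. Of 6 leukocyte markers CD14 and CD68 reached 1 RPKM in both groups and CD14 was called higher, with a sum of 20.7 to 22.8 RPKM in UT and 17.3 to 20 in Ni-W, and CD3E had no reads. The part of other cells in the results was not tested. These RNAs come from whole cultures, in which fewer cells of a type and less RNA per cell cannot be told apart.

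A gene was called when its adjusted P value was under 0.05 (DESeq2 Wald test, two-sided, 2 against 2 libraries, Benjamini-Hochberg adjustment over all tested genes) and its fitted change was at least 1.5-fold. By this rule 2484 genes, or 15.7% of those tested, differed in Ni-W. Of these, 1720 were higher (10.9% of tested genes) and 764 lower (4.83%), so that 69.2% of the calls were upward. The upward changes were also larger, with a median log2 fold change of 1.51 against -0.79 for the lower genes. Changes of at least 4-fold numbered 660 upward and 57 downward, and those of at least 16-fold 322 and 25. These are fitted values, which have no upper limit for genes without reads in a group. Among tested genes under 0.1 RPKM in UT the median standard error was 1.63 on the log2 scale. For 2483 of the 2484 called genes the values of the groups did not overlap, as was the case for 10966 of the 15826 tested genes. The counts depended on both Ni-W libraries. Without Ni-W replicate 1 they were 1516 in all and 969 higher, and without Ni-W replicate 2 they were 1657 and 1064. In such fits the lone library is assumed to vary as the other group does.

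Genes called higher were mostly genes that UT cells hardly used. The median UT level was 0.593 RPKM for genes called higher, 10.3 RPKM for genes called lower and 5.46 RPKM for all tested genes. Among the 2128 tested genes under 0.1 RPKM in UT, 473 (22.2%) were higher in Ni-W and 3 (0.141%) lower, a range in which a gene can hardly be called downward. Among the 716 genes at 100 RPKM or more, 14 (1.96%) were higher and 56 (7.82%) lower, and between 10 and 100 RPKM 187 (3.43%) were higher and 330 (6.05%) lower. No read in either UT library and at least 1 RPKM in both Ni-W libraries was the pattern of 14 genes, 13 of them called. The reverse pattern was that of 1 gene, the small nucleolar RNA gene SNORD98 (1.41 and 1.52 RPKM in UT), which was not called and is named here after its values were seen.

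**Figure D1:**
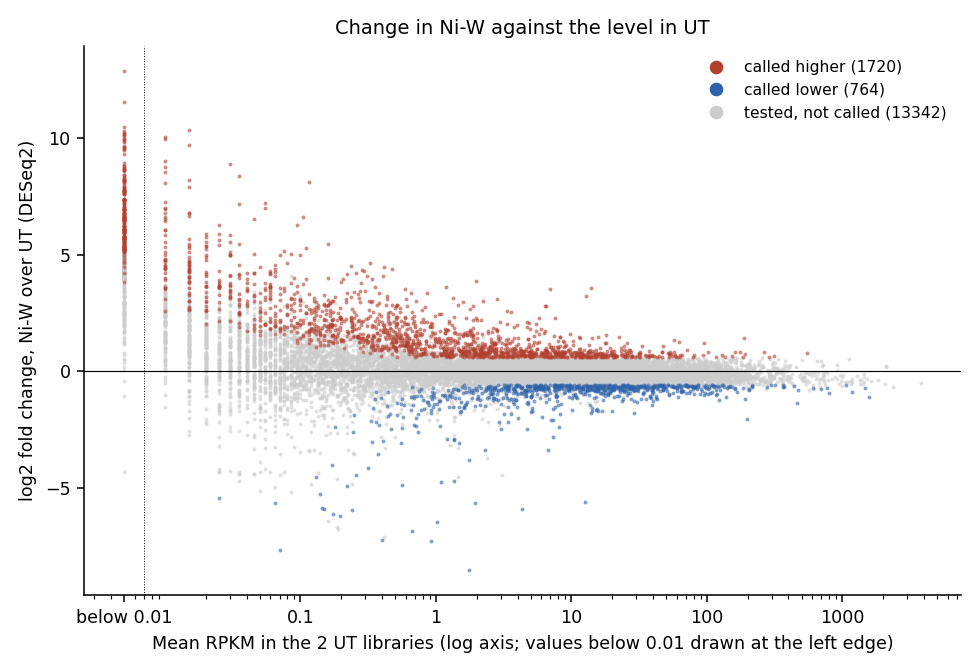
Fitted log2 fold change of Ni-W over UT (vertical axis) against the mean RPKM in the 2 UT libraries (horizontal log axis, values below 0.01 at the left edge) for the 15826 tested genes. Red points are the 1720 genes called higher, blue points the 764 called lower and grey points the rest, and the large upward changes sit at low UT levels.

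ROBO1, a receptor for the guidance cue SLIT (chr3:78646388-79817059, hg19), ranked first by fold. It had no reads in UT and stood at 5.44 and 5.49 RPKM in the Ni-W libraries, at least 380-fold higher when UT is set to a floor of 3 reads per library (adjusted P = 5.23e-17). SYK, a tyrosine kinase best known from immune receptors (chr9:93589702-93660842), went from 0 in both UT libraries to 3.28 and 3.01 RPKM, at least 147-fold higher (adjusted P = 1.1e-13). None of the UT libraries held a read of these genes, and the Ni-W replicates lay close to each other. EYA2, a transcriptional coactivator of organ development (chr20:45523263-45817492), went from 0 to 3.04 and 2.64 RPKM, at least 68.1-fold higher (adjusted P = 3.35e-11). MGMT, which removes alkyl groups from guanine in DNA (chr10:131265454-131565783), was likewise 0 in UT and reached 5.62 and 4.43 RPKM in the washed-out cells, at least 53.7-fold higher (adjusted P = 1.34e-10). The other top genes without UT reads were GALC, a galactosidase of the lysosome (1.51 and 1.61 RPKM in Ni-W), FOXE1, a forkhead factor of thyroid development (1.7 and 1.69 RPKM), OSBPL6, of the oxysterol-binding protein family (0.81 and 1.08 RPKM), ZNF883 (2.51 and 1.92 RPKM) and FAM109B (2.78 and 2.51 RPKM). They were at least 43.8-fold to at least 56.2-fold higher.

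Some genes had 1 to 3 UT reads in all, so that their ratios are imprecise. CPVL, a serine carboxypeptidase (chr7:29035247-29186153), was at 0.03 and 0 RPKM in UT and 11.4 and 10.5 in Ni-W, a ratio of 1310 (95% counting interval 236 to 52000). SLC12A7, a potassium-chloride cotransporter, was at 0 and 0.02 RPKM in UT and 8.28 and 7.79 in Ni-W, a ratio of 1000 (95% counting interval 342 to 4850). In both the groups lay far apart beside the counting error. PTPRN, a protein of secretory vesicles, was at 0 and 0.02 RPKM in UT and 3.97 and 4.21 in Ni-W, a ratio of 1070 (95% counting interval 191 to 42200). The neuronal adhesion molecule CADM3 was at 0 and 0.03 RPKM in UT and 6.98 and 6.49 in Ni-W, a ratio of 845 (95% counting interval 234 to 6980). All 4 were called, with adjusted P values of 4.5e-12, 7.84e-30, 2.01e-11 and 4.96e-19 in this order. ROBO1 overlaps LOC101927374, and CADM3 overlaps CADM3-AS1, on the opposite strand. Whether counting used the strand was not stated in the sources used here, so the reads of such partners cannot be told apart.

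The largest losses by fold formed a mixed group. TLL1, a metalloprotease that processes procollagen (chr4:166794410-167025609), was at 1.02 and 1.03 RPKM in UT and 0.01 and 0.03 in Ni-W, or -6.46 ± 0.61 as log2 fold change with its SE (adjusted P = 5.05e-24). SELENBP1, a methanethiol oxidase (chr1:151336778-151345210), fell from 4.53 and 4.05 RPKM to 0.09 and 0.09 (log2 fold change -5.91 ± 0.51, adjusted P = 1.34e-28). HIF1A-AS1, an antisense transcript at the HIF1A locus (chr14:62147759-62162541), fell from 11.7 and 13.6 RPKM to 0.22 and 0.39 (log2 fold change -5.59 ± 0.45, adjusted P = 1.28e-32). All 3 were close to 0 in Ni-W, with no overlap between the groups. WT1, a zinc finger factor of kidney and mesothelium, fell from 5.86 and 7.53 RPKM to 0.56 and 0.78 (log2 fold change -3.38 ± 0.23). GLDC, the glycine decarboxylase of mitochondria, fell from 7.31 and 7.43 RPKM to 1.11 and 1.03 (log2 fold change -2.82 ± 0.17). The rest of the 12 largest losses were those of ZNF43 (-4.77 on the log2 scale), the TNF receptor family member TNFRSF8 (-4.70), the presynaptic scaffold gene PCLO (-4.16), DCDC2 (-3.80), the adhesion gene CLMP (-2.49), the integrin activator FERMT1 (-2.20) and the cytoskeletal gene DPYSL3 (-2.19).

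**Figure D2:**
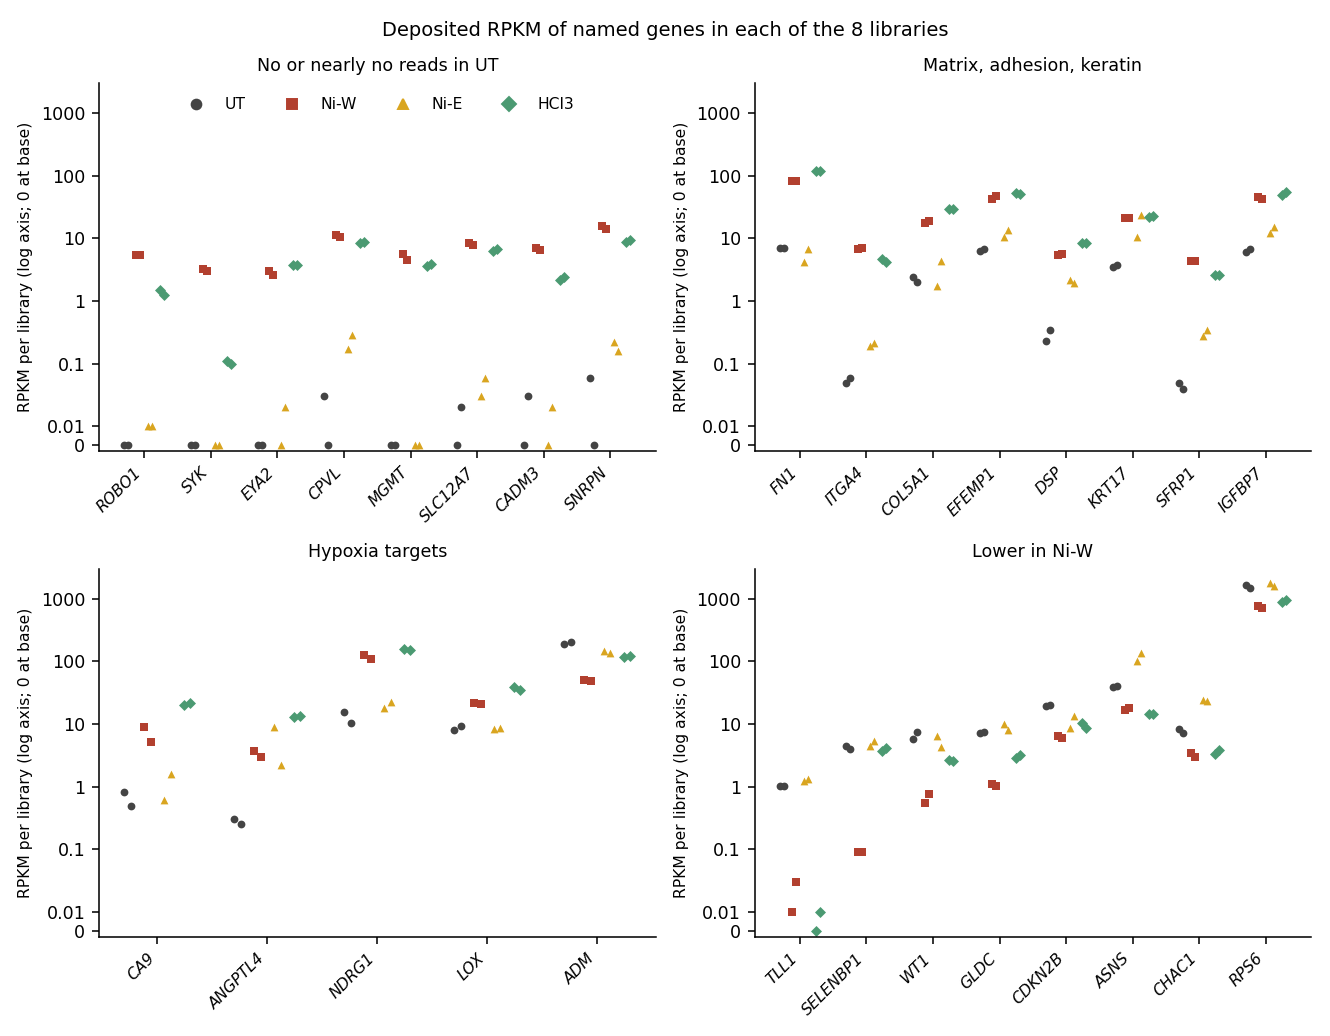
Deposited RPKM (vertical log axis, 0 drawn at the base) of 29 named genes in each of the 8 libraries, in 4 panels. Each point is 1 library of UT, Ni-W, Ni-E (nickel-exposed) or HCl3, marked by colour and shape, and in the first panel the UT values lie between 0 and 0.06 RPKM and the Ni-W values between 2.64 RPKM (EYA2) and 15.8 RPKM (SNRPN).

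To see which functions the called genes belonged to, 44 gene lists were counted and read against the 15.7% of all tested genes that were called. In 30 lists the share was above it, and in 19 it was at least 2 times as high. More members were higher than lower in 31 lists and more were lower in 10. By theme, the share called was 46.5% for adhesion and matrix (79 higher and 15 lower of 202 tested entries), 38.8% for signalling (39 and 11 of 129), 34.9% for development (18 and 11 of 83), 31.1% for immune and inflammatory lists (26 and 2 of 90), 16.5% for metabolism and stress (27 and 17 of 267) and 11.9% for growth and genome (16 and 8 of 201). A gene in more than 1 list counts in each. The share of all tested genes called varied with the UT level, from 22.2% higher and 0.141% lower under 0.1 RPKM to 1.96% and 7.82% at 100 RPKM or more. Median UT levels were 0.29 to 7.83 RPKM for the adhesion and matrix lists and 7.61 to 644 RPKM for the growth and genome lists. The part of the UT level in the shares of lists and themes was not tested. The lists were drawn up with earlier results of these data known, so no test was made on a list and the counts are descriptions.

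**Figure D3:**
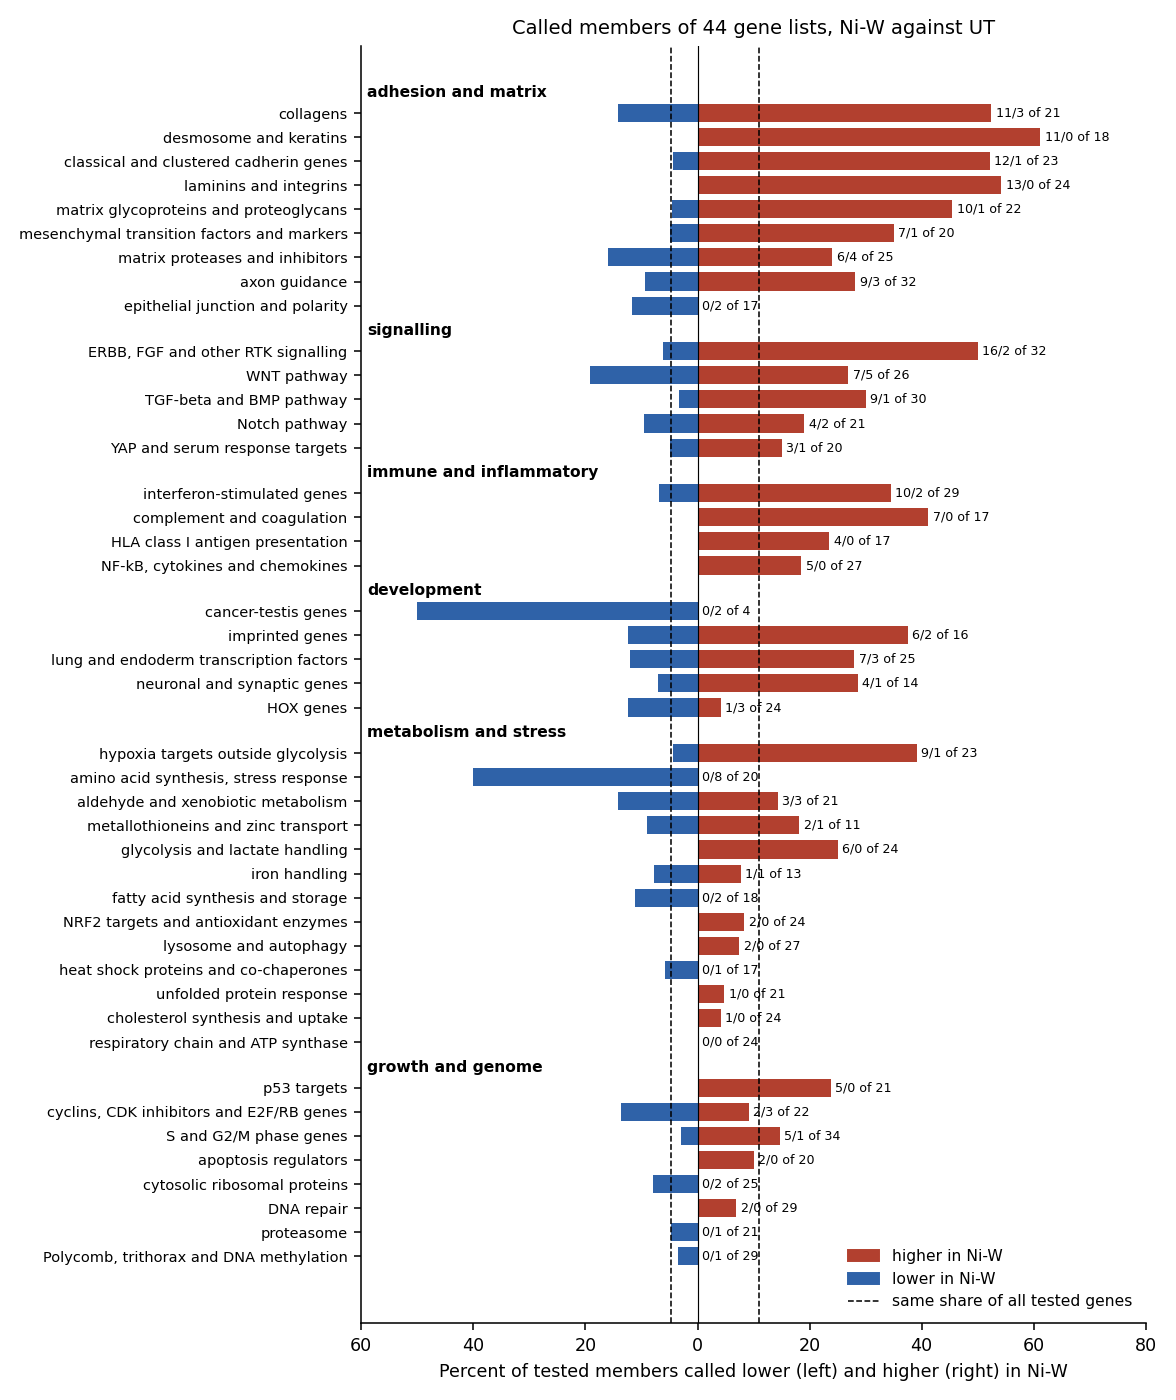
Percent of tested members called higher (right, red) and lower (left, blue) in Ni-W for each of the 44 lists, by theme, with the counts beside each bar. Dashed lines mark the shares of all tested genes, 10.9% higher and 4.83% lower, and the amino acid list, with 8 of 20 members lower and none higher, stands out to the left among lists that mostly reach to the right.

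Matrix genes were often called. Of 21 tested collagen genes 11 were higher and 3 lower (median log2 fold change 1.12), and 7 of these calls were made in each of the 4 fits that left out 1 library. COL5A1, a chain of fibrillar collagen V (chr9:137533651-137736688), was at 2.44 and 2.01 RPKM in UT and 17.7 and 19.01 in Ni-W, an 8.03-fold gain (log2 fold change 3.01 ± 0.13, adjusted P = 1.68e-122). COL8A1, a short-chain collagen, rose from 0.43 and 0.38 RPKM to 7.21 and 6.67 (log2 fold change 4.08 ± 0.23). The basement membrane chain COL4A4 (4.88 on the log2 scale, at under 1 RPKM), the anchoring fibril collagen COL7A1 (1.79) and COL6A2 (1.46) rose too. The most abundant collagen went the other way. COL1A1, a chain of collagen I, was at 390.2 and 338 RPKM in UT and 218 and 245 in Ni-W (log2 fold change -0.69 ± 0.11), a call that was lost without UT replicate 1 (-0.58) and in a fit of all 8 libraries. COL4A6 (-0.72) and COL6A3 (-1.45) were lower as well, but COL4A6 lost its call without Ni-W replicate 1 (-0.73) and without Ni-W replicate 2 (-0.70).

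Among matrix glycoproteins and proteoglycans 10 of 22 were higher and 1 lower (median 0.51, 8 calls in each leave-one-out fit). FN1, fibronectin, which integrins bind and which lines the path of migrating cells (chr2:216279384-216300791), was at 6.97 and 6.99 RPKM in UT and 82.1 and 82.8 in Ni-W. This 11.6-fold gain (log2 fold change 3.54 ± 0.10, adjusted P = 5.08e-290) was far larger than the difference between replicates. EFEMP1, a fibulin, rose from 6.17 and 6.79 RPKM to 43.1 and 47.9 (6.85-fold). FBLN1, another fibulin (2.56 on the log2 scale), the small proteoglycan BGN (3.02), THBS2 (1.48), TGFBI (1.19) and VCAN (2.14) were also higher. POSTN, periostin, was the lower member (-1.48 ± 0.55), at 0.43 and 0.44 RPKM in UT and 0.19 and 0.14 in Ni-W. The call of POSTN was lost in each of the 4 leave-one-out fits (-1.80 to -1.23), and that of VCAN in 3 of them (1.54 to 2.20, the exception being without UT replicate 2).

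The calls among laminins, which are part of the matrix, and integrins, its receptors, were upward. Of 24 laminin and integrin genes 13 were higher and none lower by DESeq2 (median 0.74, 9 calls in each leave-one-out fit, with 18 at an unadjusted P under 0.05 and 14 called by edgeR in either direction). ITGA4, the integrin chain that binds fibronectin and VCAM1 (chr2:182321619-182402468), was at 0.05 and 0.06 RPKM in UT and 6.7 and 7.01 in Ni-W, 127-fold higher (log2 fold change 6.98 ± 0.33, adjusted P = 4.07e-94), and it overlaps CERKL on the opposite strand. ITGB3 (0.43 and 0.45 RPKM in UT, 2.15 and 2.19 in Ni-W) and its partner ITGAV (17.1 and 18.01 against 40.7 and 41.98), which form a vitronectin receptor, were both higher. The hemidesmosome chain ITGB4 (1.80 on the log2 scale) and the laminin chains LAMA5 (2.25), LAMB3 (1.70) and LAMC1 (0.83) rose as well. ITGB1, the common beta chain, was at 153 and 173 RPKM in UT and 177 and 172 in Ni-W and was not called.

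Matrix proteases and their inhibitors were split, with 6 of 25 higher and 4 lower (median 0.31, 7 calls in each leave-one-out fit). MMP1, interstitial collagenase (chr11:102660641-102668966), was at 0.37 and 0.45 RPKM in UT and 8.59 and 10.03 in Ni-W, 22.3-fold higher (log2 fold change 4.48 ± 0.27, adjusted P = 4.65e-60). The gelatinase MMP2 (1.31 on the log2 scale) and the plasminogen activator PLAU (1.01) were higher, though MMP2 lost its call without Ni-W replicate 1 (1.09). TIMP3, an inhibitor of metalloproteases that overlaps SYN3 on the opposite strand, fell from 14.5 and 16.6 RPKM to 4.78 and 5.7 (log2 fold change -1.61 ± 0.13). ADAMTS1, a protease of proteoglycans, fell from 25.4 and 32.3 RPKM to 7.51 and 9.74 (log2 fold change -1.78 ± 0.15). MMP16 (-1.09) and ADAM12 (-1.02) were lower too.

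**Figure D4:**
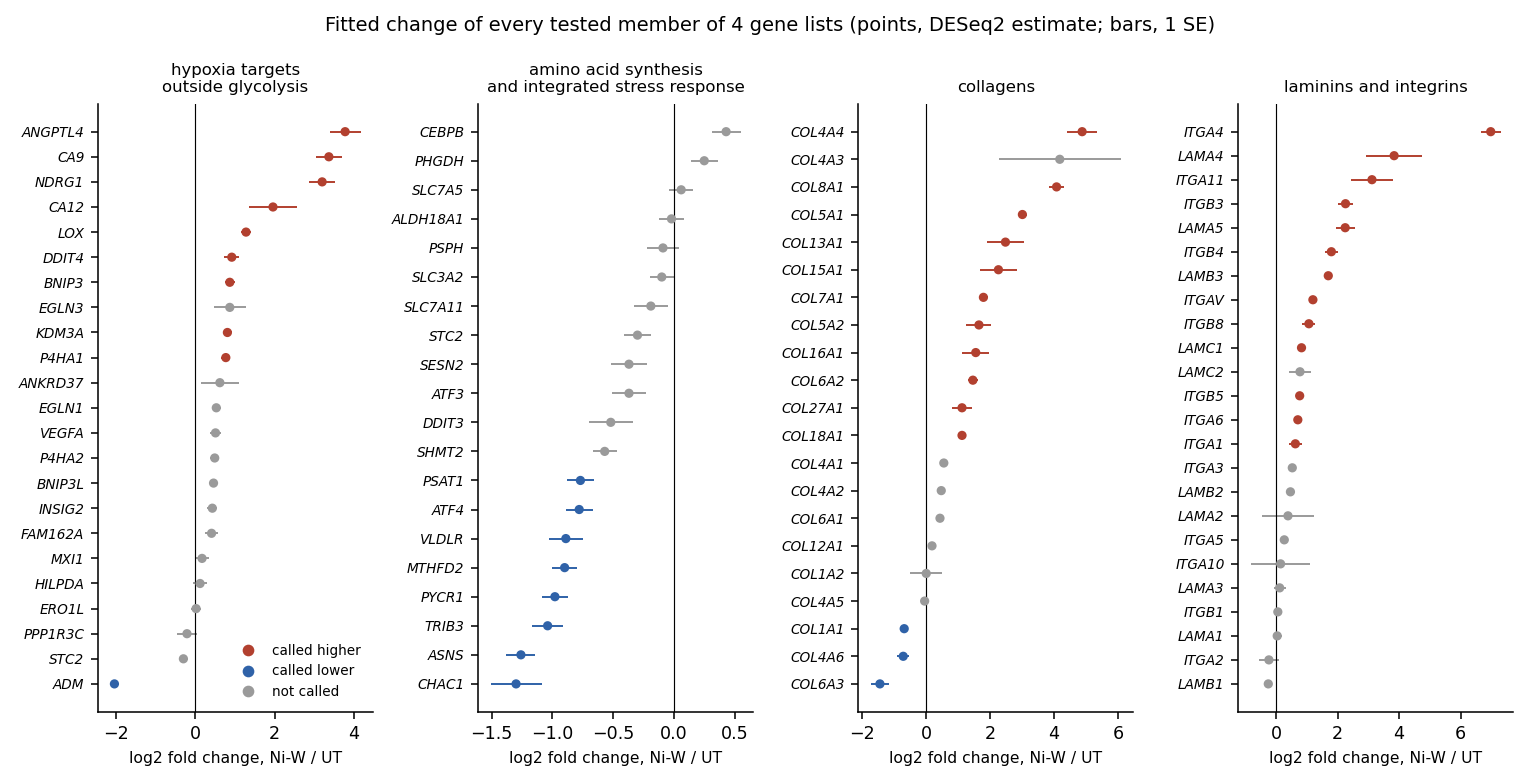
Log2 fold change of Ni-W over UT (horizontal axis, points with bars of 1 SE from DESeq2) for every tested member of 4 gene lists, each panel sorted by its own values and with its own scale. Red points are called higher, blue called lower and grey not called, and in the amino acid and integrated stress response list 8 of 20 members are blue and none red.

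Genes of cell contacts followed neither a plain epithelial nor a plain mesenchymal pattern. Of 18 desmosome and keratin genes 11 were higher and none lower by DESeq2 (median 0.81, 10 calls in each leave-one-out fit, with 15 at an unadjusted P under 0.05 and 11 called by edgeR). DSP, desmoplakin, which ties keratin filaments to the desmosome (chr6:7541870-7586946), was at 0.23 and 0.34 RPKM in UT and 5.49 and 5.72 in Ni-W, 20.1-fold higher (log2 fold change 4.33 ± 0.17, adjusted P = 3.9e-132). KRT17, a keratin of stressed epithelium, rose from 3.47 and 3.69 RPKM to 21.2 and 21.3 (5.8-fold). DSC2 (2.44 on the log2 scale), JUP (1.42) and DSG2 (0.81) of the desmosome and PERP (0.88) were higher. KRT7, the most abundant keratin of the list, rose from 267 and 265 RPKM to 478 and 481. In contrast, none of the 17 tested genes of epithelial junctions and polarity was called higher and 2 were lower by DESeq2 (7 at an unadjusted P under 0.05, 5 called by edgeR). These were CLDN1, a tight junction claudin (62.5 and 66.8 RPKM in UT, 35.4 and 36.8 in Ni-W, log2 fold change -0.88 ± 0.10), and OCLN, occludin (-0.69 ± 0.17). OCLN lost its call without Ni-W replicate 1 (-0.64) and without Ni-W replicate 2 (-0.72), which left 1 call made in each leave-one-out fit, and the share called, 11.8%, was below that of all tested genes. The median of the list was 0.51, opposite in sign to both calls.

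Of 20 mesenchymal factors and markers 7 were higher and 1 lower (median 0.46, 5 calls in each leave-one-out fit). The repressor SNAI2 was at 0.32 and 0.26 RPKM in UT and 1.1 and 1.58 in Ni-W (log2 fold change 2.15 ± 0.45), and ZEB1 was at 0.99 and 1.25 RPKM in UT and 2.21 and 2.29 in Ni-W (0.99 ± 0.20). CDH11, a mesenchymal cadherin, had no UT reads and was at least 34.6-fold higher in Ni-W, at 1 and 1.08 RPKM, a call that was lost when the replicate suffix was used as a block. ACTA2, which overlaps FAS, was higher at low levels (2.04). VIM, the intermediate filament of mesenchymal cells, was the member that fell, from 1417 and 1518 RPKM to 816 and 992 (-0.73 ± 0.11). SNAI2 lost its call without Ni-W replicate 2 (1.87) and ACTA2 without Ni-W replicate 1 (1.67). CDH2, N-cadherin, was at 64.1 and 74.2 RPKM in UT and 67.97 and 83.5 in Ni-W and was not called.

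In the list of classical and clustered cadherin genes 12 of 23 were higher and 1 lower (median 1.58), though only 5 of these calls were made in each leave-one-out fit. The clustered protocadherins PCDHB5 (0.66 and 0.57 RPKM in UT, 4.41 and 4.46 in Ni-W) and PCDHB2 (0.51 and 0.47 against 2.09 and 2.17) were the clearest, and their close copies in the same cluster make the assignment of reads uncertain. PCDHB14 (1.58) and PCDH1 (2.35) were higher on the log2 scale but lost their calls without Ni-W replicate 1 (1.39 and 2.31), and CDH12 was lower, from 0.39 and 0.41 RPKM to 0 and 0.01. Axon guidance genes showed 9 higher and 3 lower of 32 (median 0.34, 10 calls in each leave-one-out fit). Beside ROBO1, SEMA5A (0 and 0 RPKM in UT, 0.37 and 0.38 in Ni-W), SEMA3E (0.01 and 0.01 against 0.71 and 0.9) and the netrin NTN1 (2.20 on the log2 scale) were higher. SEMA3D, another secreted semaphorin, fell from 3.16 and 3.99 RPKM to 0.89 and 1.15 (log2 fold change -1.85 ± 0.19).

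Among the signalling lists, that of receptor tyrosine kinase ligands, receptors and modulators had 16 of 32 higher and 2 lower (median 0.79, 9 calls in each leave-one-out fit). Of the ligands, IGF2 (0.04 and 0.05 RPKM in UT, 0.67 and 0.78 in Ni-W), PDGFB (1.27 and 1.22 against 5.17 and 5.34) and PDGFA (0.52 and 0.66 against 2.47 and 2.22) rose, with log2 fold changes of 4.21 ± 0.53, 2.05 ± 0.19 and 2.00 ± 0.29. FGF1 (-0.68) and HBEGF (-0.60) were the lower members, and both lost their calls without Ni-W replicate 1 (-0.61 and -0.49), HBEGF also without UT replicate 2 (-0.46). Of the receptors, IGF1R rose from 2.88 and 2.75 RPKM to 8.86 and 10.3 (log2 fold change 1.73 ± 0.12), and EGFR from 7.48 and 7.74 to 12.8 and 14.1 (0.78 ± 0.12). Proteins that bind insulin-like growth factors outside the cell were also higher. IGFBP7 rose from 5.97 and 6.82 RPKM to 45.98 and 43.1 (6.85-fold), and IGFBP3 from 177 and 198 RPKM to 499.9 and 523, the second largest gain in RPKM of any called gene after B2M.

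The TGF-beta and BMP list had 9 of 30 higher and 1 lower (median 0.54, 8 calls in each leave-one-out fit). ID2, a target of BMP signals, rose from 5.56 and 5.35 RPKM to 18.9 and 17.5 (log2 fold change 1.70 ± 0.16), and GREM1, a BMP antagonist, from 5.04 and 6.45 RPKM to 17.1 and 18.1 (1.59 ± 0.14). LTBP2 (1.52 on the log2 scale), the feedback inhibitors SKIL (0.91) and SMAD7 (0.80) and the transducer SMAD3 (0.75) were higher, and TLL1 was the lower member. LTBP2 lost its call without Ni-W replicate 2 (1.45). WNT genes were divided, with 7 higher and 5 lower of 26 (median 0.17, 8 calls in each leave-one-out fit). SFRP1, a secreted WNT antagonist (chr8:41119476-41166990), was at 0.05 and 0.04 RPKM in UT and 4.41 and 4.33 in Ni-W, 91.4-fold higher (log2 fold change 6.51 ± 0.42, adjusted P = 9.78e-53). The ligand gene WNT10A (2.70) and the receptor gene FZD1 (1.68) were higher, and the ligand genes WNT5B (-1.43) and WNT7B (-1.26) and the antagonist DKK1 (-0.81, from 435 and 504 RPKM to 258 and 291) lower. WNT7B lost its call without Ni-W replicate 1 (-1.18) and without UT replicate 1 (-1.17).

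In the Notch list 4 of 21 were higher and 2 lower (median 0.24, 2 calls in each leave-one-out fit). The receptor NOTCH3 (chr19:15270444-15311792) rose from 0.58 and 0.45 RPKM to 3.81 and 3.71 (log2 fold change 2.82 ± 0.18), and the ligand gene DLL3 fell from 2.62 and 2.02 RPKM to 0.91 and 0.82 (-1.48 ± 0.31). YAP and serum response targets showed 3 higher and 1 lower of 20 (median 0.31, 2 calls in each leave-one-out fit). The share of these YAP and serum response targets that was called was little above the 15.7% of all tested genes. LATS2 (0.81) and AMOTL2 (0.73), which restrain YAP, and ANKRD1 (0.60) were higher, and the immediate early gene EGR1 was lower (-0.81). ANKRD1 lost its call without Ni-W replicate 2 (0.34) and without UT replicate 1 (0.37), and EGR1 without Ni-W replicate 1 (-0.56).

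Of the 28 calls in the immune and inflammatory lists 26 were upward, among 90 tested entries. Complement and coagulation genes had 7 of 17 higher and none lower by DESeq2 (median 0.54, 6 calls in each leave-one-out fit, with 11 at an unadjusted P under 0.05 and 7 called by edgeR). C3, the central complement component (chr19:6677846-6720662), was at 13.1 and 9.8 RPKM in UT and 37 and 28.2 in Ni-W, a rise of 1.47 ± 0.15 on the log2 scale (adjusted P = 4.05e-20). The proteases that start the classical pathway, C1S (2.10 ± 0.18) and C1R (1.19 ± 0.15), and the coagulation regulators TFPI2 (3.96 ± 0.51) and THBD (2.85 ± 0.48) were higher as well. Among interferon-stimulated genes 10 of 29 were higher and 2 lower (median 0.42), but only 3 of these calls were made in each leave-one-out fit. GBP2, a guanylate-binding protein, rose from 1.03 and 0.93 RPKM to 5.74 and 4.66 (log2 fold change 2.37 ± 0.19), and MX1, an antiviral GTPase, from 2.03 and 1.54 RPKM to 5.72 and 5.16 (1.58 ± 0.20). MX2 (1.81), ISG20 (1.71) and OAS1 (1.70) were higher, IFI27 (-3.06) and DDX58 (-0.60) lower, and ISG15 was at 62.6 and 39.8 RPKM in UT and 56.2 and 46.95 in Ni-W, not called. MX2 (1.58) and OAS1 (1.58) lost their calls without Ni-W replicate 1, and ISG20 (1.36 to 1.99), IFI27 (-3.85 to -2.41) and DDX58 (-0.60 to -0.54) in 3 of the 4 leave-one-out fits each, those without a Ni-W library among them.

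For HLA class I antigen presentation 4 of 17 were higher and none lower by DESeq2 (median 0.28, 3 calls in each leave-one-out fit, with 9 at an unadjusted P under 0.05 and 4 called by edgeR). B2M, the invariant light chain (chr15:45003685-45010357), was at 595 and 510.1 RPKM in UT and 1025 and 907 in Ni-W, the largest gain in RPKM of any called gene (log2 fold change 0.77 ± 0.11, adjusted P = 1.37e-10). HLA-B rose from 186 and 165 RPKM to 331 and 297, and HLA-F (1.31) and HLA-G (0.78) were higher on the log2 scale. The call of HLA-G was lost in each of the 4 leave-one-out fits (0.58 to 0.95) and under the replicate block. HLA-C (log2 fold change 0.32 ± 0.11) did not reach 1.5-fold. Reads that fit several genes had been removed, which bears on these closely related genes. Cytokine genes, at a share of 18.5% called, were near the background, with 5 higher and none lower of 27 by DESeq2 (median 0.27, 2 calls in each leave-one-out fit, with 14 at an unadjusted P under 0.05 and 6 called by edgeR). IL6 was at 4.47 and 3.04 RPKM in UT and 11.9 and 9.09 in Ni-W (log2 fold change 1.44 ± 0.24), and IL1B was at 12.8 and 10.9 RPKM in UT and 22.5 and 21.3 in Ni-W (0.84 ± 0.14). CXCL8 was at 136 and 124 RPKM in UT and 148 and 133 in Ni-W and was not called. SAA1, an acute-phase protein, varied within groups, at 19.4 and 8.45 RPKM in UT and 215 and 124 in Ni-W, and was higher by 3.58 ± 0.68 on the log2 scale.

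HIF targets were of interest because nickel acts on the HIF hydroxylases. Outside glycolysis 9 of 23 targets were higher and 1 lower (median 0.53, 8 calls in each leave-one-out fit). ANGPTL4, a secreted inhibitor of lipoprotein lipase (chr19:8429011-8439259), was at 0.31 and 0.25 RPKM in UT and 3.73 and 2.97 in Ni-W, 13.8-fold higher (log2 fold change 3.78 ± 0.39, adjusted P = 2.46e-20). CA9, a carbonic anhydrase of the cell surface (chr9:35673915-35681154), was at 0.81 and 0.5 RPKM in UT and 8.95 and 5.12 in Ni-W, 10.3-fold higher (3.37 ± 0.33, adjusted P = 7.42e-23). NDRG1, a hypoxia and differentiation gene, was at 15.4 and 10.3 RPKM in UT and 128 and 109 in Ni-W, 9.21-fold higher (3.20 ± 0.33, adjusted P = 1.09e-20). The replicates of these genes differed visibly, but the groups did not overlap. LOX, a collagen cross-linking oxidase (1.28), BNIP3 (0.87), the collagen prolyl hydroxylase P4HA1 (0.77), DDIT4 (0.92) and the histone demethylase gene KDM3A (0.81) were higher on the log2 scale, and DDIT4 lost its call without Ni-W replicate 1 (0.77). ADM, a vasodilator peptide and the most abundant member, went the other way, from 191 and 207 RPKM to 50.5 and 48.6, 4.11-fold lower (log2 fold change -2.04 ± 0.10, adjusted P = 3.6e-83).

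The promoters of CA9 and ANGPTL4 are shown because these genes changed most in that list. The 250 bases before the annotated start are from RefSeq (GRCh38.p14), 5′ to 3′ on the strand of the gene, CA9 at chr9:35673678-35673927 and ANGPTL4 at chr19:8363905-8364154, both on the + strand. Capitals mark ACGTG, a form of the core that HIF is known to bind, searched on both strands and here found on the other strand, so that it reads CACGT. It also lies inside the E-box CACGTG.
CA9 promoter: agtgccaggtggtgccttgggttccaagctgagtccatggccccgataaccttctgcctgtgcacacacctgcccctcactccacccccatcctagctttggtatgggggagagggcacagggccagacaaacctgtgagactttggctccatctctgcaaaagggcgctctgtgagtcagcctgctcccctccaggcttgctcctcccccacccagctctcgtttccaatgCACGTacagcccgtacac
ANGPTL4 promoter: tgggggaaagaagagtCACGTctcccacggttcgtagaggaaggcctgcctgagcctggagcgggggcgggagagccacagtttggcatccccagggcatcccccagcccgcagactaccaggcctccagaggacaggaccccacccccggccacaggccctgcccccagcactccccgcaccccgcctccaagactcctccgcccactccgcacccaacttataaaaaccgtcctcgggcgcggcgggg
CA9 had 1 match, 18 to 14 bases before the start, and ANGPTL4 had 1 match, 234 to 230 bases before it. The letters were present in 18.5% of the 35116 promoter windows in the table, and in at least 1 window of 21.7% of its genes. Of the 47 tested genes of the hypoxia and glycolysis lists 40 were matched to the table, and 32 of their 72 windows (44.4%) held the letters. Counted by gene, 26 of the 40 (65.0%) and 10 of the 15 matched called genes (66.7%) had them in some window. The windows of these lists also had a median GC content of 68% against 58% in the table and a median observed-to-expected CpG ratio of 0.753 against 0.558, whose part in the counts was not tested. A match is a string of letters, and no binding was measured here.

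The glycolysis list had 6 of 24 higher and none lower by DESeq2 (median 0.23, 5 calls in each leave-one-out fit, with 14 at an unadjusted P under 0.05 and 6 called by edgeR). PDK1, which holds pyruvate back from mitochondria, rose from 2.83 and 2.53 RPKM to 6.33 and 6.36 (log2 fold change 1.26 ± 0.15). ALDOC (1.65 ± 0.29), ENO2 (0.61 ± 0.10), the regulators PFKFB4 (1.02 ± 0.19) and PFKFB3 (0.63 ± 0.11) and the glucose transporter gene SLC2A1 (0.64 ± 0.11) were the other higher members. With GC and length trends removed 3 of the 6 remained called, and PFKFB3 (0.54), SLC2A1 (0.57) and ENO2 (0.58) fell under the fold threshold. SLC2A1 also lost its call without Ni-W replicate 1 (0.56) and without UT replicate 2 (0.54). GAPDH, at 2191 and 2008 RPKM in UT and 2606 and 2295 in Ni-W, was not called. In the respiratory chain list none of 24 members was called by DESeq2 or edgeR, with 11 at an unadjusted P under 0.05 and a median of -0.23. This median was -0.05 without UT replicate 1 and -0.09 with GC and length trends removed.

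The clearest downward group was amino acid synthesis and the integrated stress response, the program that the factor ATF4 drives when amino acids are short. Of 20 tested members 8 were lower and none higher by DESeq2 (median -0.44, with 15 at an unadjusted P under 0.05 and 8 called by edgeR), and all 8 calls were made in each of the 4 leave-one-out fits. ASNS, asparagine synthetase (chr7:97481429-97501854), was at 38.9 and 41.3 RPKM in UT and 16.8 and 17.8 in Ni-W, 2.39-fold lower (log2 fold change -1.26 ± 0.12, adjusted P = 1.11e-24). CHAC1, which breaks down glutathione (chr15:41245636-41248717), was at 8.36 and 7.24 RPKM in UT and 3.51 and 3.02 in Ni-W, 2.47-fold lower (-1.30 ± 0.21, adjusted P = 7.34e-09). ATF4 itself was at 107 and 98.2 RPKM in UT and 62.9 and 58.7 in Ni-W (-0.78 ± 0.11). The groups did not overlap for these 3 genes. The enzymes of proline and serine synthesis PYCR1 (-0.98) and PSAT1 (-0.77), the mitochondrial folate enzyme MTHFD2 (-0.90), the pseudokinase TRIB3 (-1.04) and the lipoprotein receptor VLDLR (-0.89) were the other lower members. SLC7A5, the most abundant by mean over these libraries, had a log2 fold change of 0.06 and was not called.

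The promoters of CHAC1 (chr15:40953221-40953470, + strand) and ASNS (chr7:97872409-97872658, − strand, the first of 2 in the table) are shown in the same way because they changed most in this list. Capitals mark TGATGNAA, a composite site that ATF4 is known to share with C/EBP factors, on either strand.
CHAC1 promoter: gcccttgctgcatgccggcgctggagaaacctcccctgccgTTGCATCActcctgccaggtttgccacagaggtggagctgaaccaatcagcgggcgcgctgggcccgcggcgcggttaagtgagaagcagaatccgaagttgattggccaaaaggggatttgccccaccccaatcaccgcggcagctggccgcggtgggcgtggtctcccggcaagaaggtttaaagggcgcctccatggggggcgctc
ASNS promoter: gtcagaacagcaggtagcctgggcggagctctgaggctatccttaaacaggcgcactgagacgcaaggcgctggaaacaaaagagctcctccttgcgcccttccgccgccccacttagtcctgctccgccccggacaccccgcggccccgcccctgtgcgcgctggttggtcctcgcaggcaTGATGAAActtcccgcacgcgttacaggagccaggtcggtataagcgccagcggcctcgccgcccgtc
The match in CHAC1 lay 209 to 202 bases before the start, on the other strand, and that in ASNS 68 to 61 bases before it. The letters were present in 3.14% of all 35116 windows, in 3 of the 25 windows of the 16 matched list members and in 2 of 11 windows of the 7 matched called members.

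Other stress and metabolic lists were mostly called no more often than all genes. The unfolded protein response had 1 of 21 higher, the disulfide isomerase PDIA3 (0.68 on the log2 scale), heat shock proteins 1 of 17 lower, DNAJA1 (-0.61), and cholesterol synthesis 1 of 24 higher, HMGCS1 (0.85). Their medians were 0.03, -0.10 and 0.03. DNAJA1 lost its call with GC and length trends removed (-0.49), without Ni-W replicate 1 (-0.58) and without UT replicate 2 (-0.53), and limma did not call it. Of 24 NRF2 targets 2 were higher (median -0.05). NQO1, a quinone reductase (chr16:69743304-69760571), rose from 25.8 and 25.2 RPKM to 62.99 and 58.6, 2.33-fold higher (log2 fold change 1.22 ± 0.11, adjusted P = 1.32e-28), and AKR1C3, which has close paralogs, was the other (1.52 ± 0.42), a call lost without Ni-W replicate 1 (1.48) and without Ni-W replicate 2 (1.56). In fatty acid synthesis 2 of 18 were lower (median -0.32), the regulator SREBF1 (-1.07 ± 0.13) and the elongase ELOVL6 (-1.14 ± 0.17). Lysosome and autophagy genes had 2 of 27 higher (median 0.10), HEXA (0.75) and GABARAPL1 (0.70).

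Metal handling was of interest because the cells had been exposed to a metal. Of 11 tested metallothionein and zinc transport genes 2 were higher and 1 lower (median 0.17). SLC39A8, an importer of zinc, manganese and cadmium (chr4:103182821-103266655), was at 0.36 and 0.23 RPKM in UT and 5.98 and 5.13 in Ni-W, 19.4-fold higher (log2 fold change 4.28 ± 0.27, adjusted P = 4.02e-52). The related importer SLC39A10 was higher by 0.83 ± 0.12 on the log2 scale. MT1E, a metallothionein, was lower, at 29.5 and 17.6 RPKM in UT and 11.9 and 7.89 in Ni-W (-1.29 ± 0.27), a call lost without UT replicate 1 (-0.86). MT2A, the most abundant metallothionein here, was at 292 and 207 RPKM in UT and 324 and 261 in Ni-W and was not called. Metallothionein genes resemble each other closely, so the assignment of their reads is uncertain. In iron handling 1 of 13 was higher, the exporter ferroportin (SLC40A1, 0.27 and 0.21 RPKM in UT and 1.54 and 1.64 in Ni-W), and 1 lower, the reductase STEAP3 (-0.82 ± 0.15). The share of the iron list called, 15.4%, was near the 15.7% of all tested genes. In aldehyde and xenobiotic metabolism 3 were higher and 3 lower of 21 (median 0.06). ALDH2 (0.93) and CYP1B1 (0.79) were higher, ALDH1B1 (-1.19) lower, and GSTM1 fell from 6.92 and 7.62 RPKM to 2.13 and 1.38 while its paralog GSTM2 rose from 0.1 and 0.06 RPKM to 1.5 and 1.41, a pair between which reads could be exchanged.

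Of 34 S and G2/M phase genes 5 were higher and 1 lower, a share of 17.6% against 15.7% of all tested genes (median 0.10, 5 calls in each leave-one-out fit). TOP2A, the topoisomerase of dividing cells, rose from 152 and 172 RPKM to 297 and 297 (0.84 ± 0.10), NUSAP1 (0.89), BUB1B (0.76) and UBE2C (0.68) were higher, and the replication clamp PCNA was lower (-0.68 ± 0.10). PCNA lost its call with GC and length trends removed (-0.57), and the calls of all 5 genes were lost when the median of the 10 Mb window around each was subtracted (0.54, 0.46, 0.33, 0.39 and -0.29 in this order), an alternative described with the genome windows. Cell cycle regulators gave 2 higher and 3 lower of 22 (median 0.04). CDKN2B, the p15 inhibitor of CDK4 and CDK6 (chr9:22002902-22009312), was at 19.3 and 20.4 RPKM in UT and 6.38 and 6.06 in Ni-W, 3.27-fold lower (-1.71 ± 0.12, adjusted P = 5.09e-44), and overlaps CDKN2B-AS1. MYC, a growth regulator, fell from 41.7 and 43.9 RPKM to 18.1 and 19.8 (-1.21 ± 0.11). CDKN2A was lower too (-0.77 ± 0.14), a call lost without UT replicate 1 (-0.54) and after subtraction of the window median (-0.15). CDKN1A, the p21 inhibitor, rose from 25.9 and 22.9 RPKM to 55.8 and 48.7 (1.06 ± 0.12). Of 21 p53 targets 5 were higher and none lower by DESeq2 (median 0.08, 2 calls in each leave-one-out fit, with 12 at an unadjusted P under 0.05 and 5 called by edgeR), namely DDB2 (1.05), BTG2 (0.94), FAS (0.90) and GDF15 (1.99) beside CDKN1A. BTG2 lost its call without Ni-W replicate 2 (0.88), GDF15 without either Ni-W library (1.83 and 2.12) and FAS in all leave-one-out fits but that without UT replicate 2 (0.80 to 1.00).

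DNA repair genes had 2 of 29 higher, MGMT and PARP1 (0.60 ± 0.10), and none lower by DESeq2 (median -0.13, with 13 at an unadjusted P under 0.05 and 2 called by edgeR). PARP1 lost its call after correction for GC content and length and without UT replicate 1 (0.54 in both). Apoptosis regulators had 2 of 20 higher (median 0.10), the BH3-only gene BMF (2.32 ± 0.26) and the protease gene CASP1 (1.99 ± 0.27). The writers, erasers and readers of Polycomb, trithorax and DNA methylation marks had 1 of 29 lower and none higher by DESeq2 (median -0.02, with 7 at an unadjusted P under 0.05 and 1 called by edgeR). The lower member was the DNA demethylase gene TET1 (-0.66 ± 0.24), whose call was lost in each of the 4 leave-one-out fits. The proteasome had 1 of 21 lower, PSMB6 (-0.60), and a median of -0.01. PSMB6 lost its call with GC and length trends removed (-0.45), without UT replicate 1 (-0.38) and without Ni-W replicate 2 (-0.54).

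The largest loss in RPKM of any called gene was that of RPS6, a protein of the small ribosomal subunit (chr9:19376254-19380235), at 1676 and 1476 RPKM in UT and 774 and 709 in Ni-W, 2.18-fold lower (-1.12 ± 0.10, adjusted P = 6.4e-25). C1QBP, a mitochondrial matrix protein whose gene overlaps RPAIN, fell from 435 and 493 RPKM to 191 and 182 (2.55-fold). The groups did not overlap for these genes. RPL26 (-0.91 ± 0.35), RPS13 (-0.74 ± 0.14) and RPS16 (-0.60 ± 0.14) were also among the 8 largest losses in RPKM, but all 3 lost their call without UT replicate 1 (-0.55, -0.48 and -0.37). RPL26 also lost it without Ni-W replicate 1 (-1.04) and without Ni-W replicate 2 (-0.78), and RPS16 without Ni-W replicate 2 (-0.46), and RPS13 (-0.47) and RPS16 (-0.35) lost theirs with GC and length trends removed. In the list of cytosolic ribosomal proteins 2 of 25 were called by DESeq2 (8.0%, against 15.7% of all tested genes) and 3 by edgeR. The median UT level of the list was 644 RPKM, and at 100 RPKM or more 1.96% of tested genes were higher and 7.82% lower. Both DESeq2 calls were lower, RPS6 and RPL10, the latter not without UT replicate 1 (-0.58). At an adjusted P under 0.05 (DESeq2) and any fold, 18 members were lower and 0 higher. The log2 fold change was below 0 for 21 members and above 0 for 4. Its median of -0.39 ranged from -0.6 to -0.12 between pairs of libraries. Ribosomal protein genes have many processed copies, and reads that fit several places had been removed.

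Developmental regulators were called in both directions. Of 25 lung and endoderm transcription factors 7 were higher and 3 lower (median 0.04, 3 calls in each leave-one-out fit). ELF3, an epithelial ETS factor (chr1:201979690-201986315), was at 4.66 and 3.27 RPKM in UT and 17.9 and 14.5 in Ni-W (1.99 ± 0.17, adjusted P = 1.28e-28). SOX4 (1.22), SOX9 (1.47), FOXA1 (1.13) and GATA6 (0.88) were higher, but FOXA1 lost its call in 4 (0.91 to 1.36) and SOX9 in 3 of the 4 leave-one-out fits (1.21 to 1.69, not without UT replicate 2), and GATA6 without Ni-W replicate 1 (0.75). NKX2-1, a master factor of lung and thyroid, had no UT reads and was at least 4.41-fold higher in Ni-W, at 0.29 and 0.21 RPKM, a call lost without Ni-W replicate 1 and under the replicate block. The lower members were GATA3, PITX1 and RUNX2. GATA3 lost its call under the replicate block (-5.57), and PITX1 (-0.58) and RUNX2 (-0.60) lost theirs without UT replicate 1. HOX genes had 1 of 24 higher, HOXA10 (0.49 and 0.52 RPKM in UT, 2.54 and 2.39 in Ni-W), and 3 lower, HOXB9 (-1.99 ± 0.23), HOXB6 (-1.14) and HOXC8 (-1.12), with a median of -0.15. The share of HOX genes called, 16.7%, was near the 15.7% of all tested genes. HOXB6 lost its call in 3 of the 4 leave-one-out fits (-1.18 to -0.82, not without Ni-W replicate 1). Of 14 tested neuronal and synaptic genes 4 were higher, CADM3, NCAM1, CADM4 (1.40) and NES (1.03), and 1 lower, DPYSL3. NES lost its call without either Ni-W library (1.03 and 1.05). The median was 0.31, or 0.21 with genes lacking reads in a group set to their bound. Of 4 tested cancer-testis genes 2 were lower, the closely related MAGEA3 (0.18 and 0.12 RPKM in UT) and MAGEA12 (0.17 and 0.18), which had no reads in Ni-W and were at least 2.42-fold and at least 3.36-fold lower. Both calls were lost without Ni-W replicate 1, without Ni-W replicate 2 and without UT replicate 2.

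Imprinted genes had 6 of 16 higher and 2 lower (median 0.54, 5 calls in each leave-one-out fit). SNRPN, a splicing protein gene of the imprinted region of chromosome 15 (chr15:25200135-25223729), was at 0.06 and 0 RPKM in UT and 15.8 and 14.3 in Ni-W, a ratio of 470 (95% counting interval 160 to 2280). It overlaps SNURF, at 0.06 and 0.17 RPKM in UT and 16 and 14.4 in Ni-W, on the same strand, so their reads cannot be told apart. IGF2 and its neighbour H19 (0.52 and 0.39 RPKM in UT, 2.3 and 1.58 in Ni-W) were both higher, as was GNAS, from 310.2 and 318 RPKM to 489 and 521. PEG10 (-1.06 ± 0.12) and MEST (-0.70 ± 0.11) were lower. H19 lost its call without Ni-W replicate 1 (1.77) and MEST without UT replicate 2 (-0.58).

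Called genes were not spread evenly over the genome. Among the 11953 genes that averaged 50 or more normalized reads the median log2 fold change was -0.03, with 10.5% called higher and 5.97% lower. On chromosome 13 the median was 0.38 (207 genes, 29.0% higher and 0.483% lower) and on chromosome 15 it was 0.44 (393 genes, 29.0% and 0.763%). Chromosome 9 held many calls in both directions, with 14.1% of 496 genes higher and 15.9% lower. Of 221 windows of 10 Mb with at least 20 such genes, 25 had a median above 0.3, of which 13 lay on chromosomes 13 and 15, and 7 had a median below -0.3. The lowest were on chromosome 9 (-0.72 for 0 to 10 Mb and -0.66 for 30 to 40 Mb), chromosome 20 (-0.54 for 10 to 20 Mb) and chromosome 17 (-0.47 for 0 to 10 Mb). The 25 high windows held 295 higher and 7 lower genes of 1055, and the 7 low windows 18 higher and 135 lower genes of 418.

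**Figure D5:**
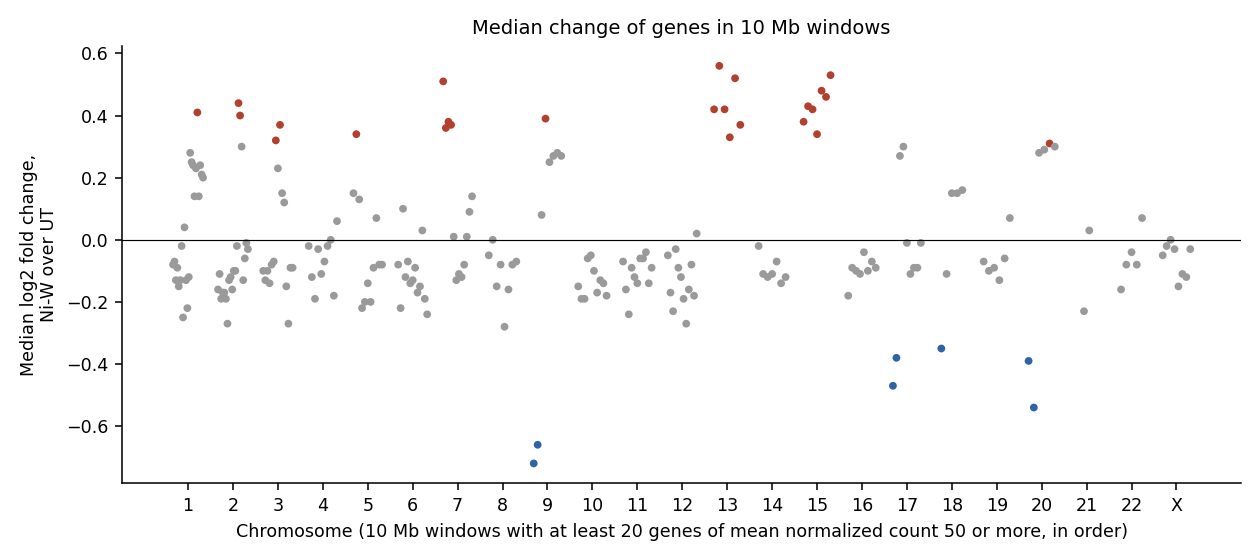
Median log2 fold change of Ni-W over UT (vertical axis) in 221 windows of 10 Mb with at least 20 genes that averaged 50 or more normalized reads, in order along each chromosome (horizontal axis). Each point is a window, red above 0.3 and blue below -0.3, and 13 of the 25 red points are on chromosomes 13 and 15.

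Several named genes lay in windows whose median was shifted, so their change stood beside a shift of their neighbours. The window median was -0.65 for RPS6, -0.62 for CDKN2B, -0.72 for GLDC and -0.47 for C1QBP, where the windows of RPS6 and CDKN2B held 16 and 14 genes and so are not among the 221, and it was 0.43 for B2M and 0.30 for TOP2A. CDKN2B (-1.71) and GLDC (-2.82) lay well below their windows, CDKN2A, in the window of CDKN2B, did not (-0.77), and CA9 was higher by 3.37 in a window with a median of -0.66. FN1, NDRG1, ADM, SLC39A8 and DSP lay in windows with medians from -0.16 to -0.07. When the window median was subtracted from each gene, an alternative chosen after seeing the data, 1976 genes were called, 1497 higher and 479 lower, and 1857 of them were among the 2484. The calls of B2M, RPS6, EIF4A1, VIM, EGFR, SMAD3, LATS2, AMOTL2, VLDLR, PDIA3, HEXA, SLC39A10, ALDH1B1 and GNAS were then lost. So were those of TOP2A, NUSAP1, BUB1B, UBE2C, PCNA and CDKN2A, among others. The part of these neighbourhood shifts in the change of a single gene was not tested.

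The nickel-exposed group (Ni-E, 6 weeks in 100 µM NiCl2) and a further group, HCl3, whose labels carry the same account of washed-out single cells as Ni-W, but no washout time, share the same UT controls, so their mean RPKM over 2 libraries is only set beside that of Ni-W, with no test. FN1 averaged 82.4 RPKM in Ni-W, 119 in HCl3, 5.39 in Ni-E and 6.98 in UT. CPVL averaged 10.97, 8.49, 0.23 and 0.015 RPKM in the same order. MGMT stood at 5.03 RPKM in Ni-W and 3.7 in HCl3 and was listed at 0 in Ni-E and UT. Between Ni-W and HCl3 the values were far apart for SYK, at 3.15 RPKM in Ni-W and 0.105 in HCl3, and for SELENBP1, at 0.09 and 3.94, against 4.94 in Ni-E and 4.29 in UT. ASNS averaged 17.3 RPKM in Ni-W, 14.6 in HCl3, 119 in Ni-E and 40.1 in UT. CHAC1 averaged 3.27, 3.57, 23.6 and 7.8 RPKM in that order. CA9 averaged 7.04 RPKM in Ni-W, 20.7 in HCl3, 1.1 in Ni-E and 0.655 in UT, and SLC39A8 5.56, 3.32, 0.685 and 0.295.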

How the data were processed

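RNA from 8 BEAS-2B libraries in 4 groups was sequenced by the authors (TruSeq libraries, Illumina HiSeq), aligned to hg19 with STAR 2.4 and counted per RefSeq gene in BioWardrobe after reads with several hits had been removed. The deposited values are raw read counts per gene and RPKM, which the authors rounded to 2 decimals. Whether counting used the strand was not given in the sources used here.

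The counts of the 4 UT and Ni-W libraries (26383920 to 45692298 reads) were tested with DESeq2 1.42.0 in R 4.3.3, by the Wald test with median-of-ratios size factors, independent filtering and Benjamini-Hochberg adjustment, and called at an adjusted P under 0.05 and at least 1.5-fold. RPKM serve as levels. With 4 libraries a permutation test of a single gene cannot reach 0.05, so P values come from the fit across genes. For a gene without reads in a group, that group was set to a floor of 3 reads per library, and ratios on 1 to 3 reads carry a 95% interval. Floors and intervals cover counting error only. A fold change is relative to the median gene (median log2 fold change of tested genes 0.01).

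Named genes were the 12 with the largest fold in each direction (mean normalized count of at least 100, groups not overlapping), the 8 with the largest RPKM difference in each direction, and in each of 44 lists up to 5 called members (mean normalized count of at least 50) and the most abundant one. Further genes were named after their values were seen. Some genes that meet these rules are not reported here. The members and lists were chosen with earlier results of these data known. Promoters are from RefSeq (GRCh38.p14). Only 11149 of 15826 tested genes matched that table, so no sequence property was compared over all called genes, and just the shown sets, at least 80% matched, were counted.

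Alternatives were edgeR 4.0.16 (quasi-likelihood), limma 3.58.1 on log2 RPKM with a pseudocount of 1 or 0.1, TMM factors, all 8 libraries, other thresholds, thinning to the smallest total, removal of GC and length trends, the replicate suffix as a block and each library left out. The procedures were tested on simulated counts, where DESeq2 recovered 197 of 200 changed genes with 0 false calls, and limma on log2(RPKM + 1) 138 with 10. The changes, of 2-fold or 4-fold, were planted only in genes with many reads, and all genes shared the same dispersion. Recovery of changed genes with few reads or with a larger spread was not tested. With a planted GC trend DESeq2 recovered 152, among them 52 of the 100 genes changed 2-fold, and 198 after its removal.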

Additional observations from a re-analysis of the deposited data

How the results depend on the processing

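The 2484 calls (1720 higher, 764 lower) became 1409 (993 and 416) with limma on log2(RPKM + 1), 1368 (1140 and 228) at 2-fold and 4918 (2763 and 2155) with no fold threshold. With edgeR they were 2782 (1935 and 847), and 2417 of the 2484 were shared. Leaving out 1 library in turn gave 1516 to 2190 calls, 969 to 1413 higher and 547 to 782 lower, the lowest totals being those without a Ni-W library. Subtracting the median of the surrounding 10 Mb window, an alternative chosen after seeing the data, gave 1976 (1497 and 479), and turned DNAJA1 from -0.61 to 0.05, DDX58 from -0.60 to 0.06 and SPRY2 from 0.63 to just below 0 (-0.0). The window alternative dropped any call whose sign turned, so it could show no opposite call. Under the other alternatives no gene of the 2484 was called in the opposite direction, though the other fold thresholds reuse the main fit. With the replicate suffix as a block 2134 genes were called (1435 and 699), 2103 of them shared, and with GC and length trends removed as well 2054 (1387 and 667). Deviations of same-suffix libraries correlated at r = 0.222 over only 2 pairs, and the labels name no shared batch, so the suffixes are not taken as pairs. Of 292 called genes that were named by the rules or belonged to a list, 267 kept their call under the block, 282 with the trends removed, 246 without UT replicate 1, 257 without UT replicate 2, 214 without Ni-W replicate 1 and 228 without Ni-W replicate 2. UT replicates differed along GC content (rho = -0.490 across genes, replicate 2 against replicate 1), and Ni-W replicates did so less, in the same direction (rho = -0.218). Ni-W against UT hardly differed along it (rho = 0.0675). With 2 libraries a group, depth limits what can be said of genes with few reads. With a filter on a mean count of at least 10 no median of the cancer-testis list could be computed.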
